A study of Rattus norvegicus with 9 samples.

Results

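The D-type cyclins, their kinase partners Cdk4 and Cdk6, and the inhibitors of these kinases were examined across the Control, Thrombin and PD03 groups. These 10 genes were matched by symbol among the 19085 genes listed: the cyclins Ccnd1, Ccnd2 and Ccnd3, the kinases Cdk4 and Cdk6, the Cip/Kip inhibitors Cdkn1a, Cdkn1b and Cdkn1c, and the INK4 inhibitors Cdkn2b and Cdkn2c. Each symbol matched 1 gene, and all 10 passed the filter on low counts that left 13256 genes for testing. Cdkn1c was 4.38-fold lower with thrombin than with medium alone, and 6.43-fold higher once PD03 was added to thrombin. Ccnd1 did not pass the test between thrombin and control and was 2.24-fold lower with PD03 than with thrombin alone. The other 8 genes moved by less than 0.58 on the log2 scale in every comparison, and of these Cdk4 and Cdkn2b had the largest changes.

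D-type cyclins are the regulatory subunits that switch on Cdk4 and Cdk6 in the G1 phase of the cell cycle. The active kinases phosphorylate the retinoblastoma protein Rb, which then releases E2F transcription factors, and these drive the genes of DNA replication. INK4 proteins bind Cdk4 and Cdk6 themselves, whereas Cip/Kip proteins bind complexes of a cyclin with its kinase and are known above all as inhibitors of Cdk2. Mitogens acting through the kinases MEK and ERK are known to raise Ccnd1 transcription, which is why these genes are of interest where a MEK inhibitor is given.

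The cells were primary osteoblasts from the calvaria of male Sprague-Dawley rats aged 24 hours, although the sample labels give the knee as tissue. Every group, the Control group included, was kept for 7 days in osteogenic induction medium, which held serum, β-glycerophosphate, ascorbic acid and dexamethasone. The Control group had this medium alone, the Thrombin group had 20 U/mL thrombin added, and the PD03 group had the same thrombin together with PD0325901 (PD03), a MEK inhibitor, for which the series text and the paper state 0.1 μM but a protocol of the labels states 0.1 mM. Each group had 3 libraries of polyadenylated RNA, and no group received PD03 without thrombin, so an action of PD03 by itself cannot be told apart from its action on thrombin-treated cells. The methods describe the samples of a group as independent, but neither they nor the labels say whether these came from separate cultures or animals, so the p-values measure the spread between these libraries, which may be technical. The RNA came from whole cultures, in which fewer cells of a type and less RNA per cell cannot be told apart.

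Library totals lay between 15447832 and 19841468 counts, and the common biological coefficient of variation was 4.28%. Values are given as CPM, the count relative to the library's size, after TMM scaling, which sets libraries against each other by the bulk of their genes. The TMM factors ran from 1.02 to 1.04 in the Control and Thrombin libraries and from 0.949 to 0.954 in the PD03 libraries, where the collagen gene Col1a1 took 6.78% to 6.96% of all counts against 4.18% to 5.05% elsewhere. Scaling by library totals in place of TMM moved the median over all genes to -0.09 on the log2 scale for PD03 against thrombin and to -0.12 for PD03 against control, from 0.01 and -0.004. Small rises with PD03 therefore depended on the scaling, and the values under both are given where this decides a result. Of the osteoblast markers Col1a1 averaged 42854 to 72132 CPM over the groups, whereas the mature markers Bglap, Ibsp and Dmp1 averaged under 1 CPM in every group, and the summed level of all 10 markers was 60717 to 66509 CPM in the Control libraries, 55826 to 59057 CPM with thrombin and 95117 to 98252 CPM with PD03.

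A gene was taken to have changed where the Benjamini-Hochberg adjusted p-value of edgeR's quasi-likelihood test, adjusted over all 13256 genes, was below 0.05, and was called where the log2 fold change was also beyond 0.58 in size. In the test of any difference among the 3 groups, 8 of the 10 genes passed, the exceptions being Ccnd2 (adjusted p = 0.051, edgeR) and Cdk6 (adjusted p = 0.078, edgeR), against 56.0% of all genes tested. Many small changes were thus detectable throughout this dataset, and the counts below are read against those shares.

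For thrombin against control, none of the 10 genes was called higher and 1 was called lower (Cdkn1c), where 2.62% and 5.44% of all genes were. Without the fold threshold, 1 gene rose (Cdkn2c) and 4 fell (Cdkn1a, Cdkn1b, Cdkn1c and Cdkn2b), against 14.1% and 14.6% of all genes. The genes that fell were all inhibitors, and no cyclin or kinase passed the test. The median log2 fold change of the 10 genes was -0.03, beside -0.01 over all genes.

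For PD03 against thrombin, 1 gene was called higher (Cdkn1c) and 1 lower (Ccnd1), where 9.61% and 6.31% of all genes were. Without the fold threshold, 4 genes rose (Ccnd2, Ccnd3, Cdkn1b and Cdkn1c) and 4 fell (Ccnd1, Cdk4, Cdkn1a and Cdkn2c), against 25.3% and 24.5% of all genes. For PD03 against control, no gene was called higher and 1 was called lower (Ccnd1), where 4.90% and 4.07% of all genes were. Here Ccnd3 and Cdkn1c rose and Ccnd1, Cdk4, Cdkn1a and Cdkn2b fell, against 19.7% and 20.2% of all genes. The 3 comparisons share libraries in pairs, so their counts are not independent of each other.

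**Figure D1:**
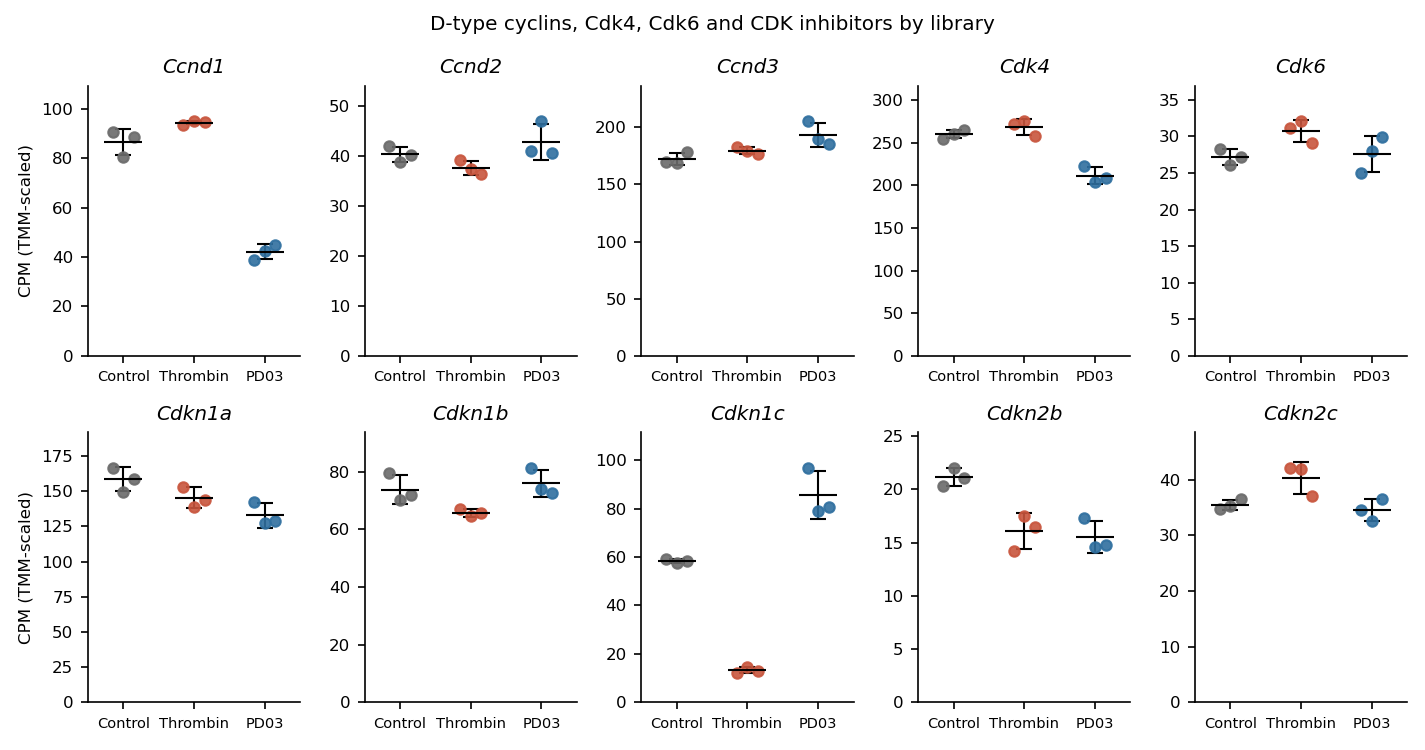
TMM-scaled CPM of each of the 10 genes (vertical axes, each starting at 0) in the 9 libraries, by group. Coloured points are libraries, the wide black bar is the group mean and the whiskers are ± 1 SD (n = 3). The PD03 libraries lay lowest for Ccnd1, at 38.9 to 44.9 CPM, and the Thrombin libraries lay lowest for Cdkn1c, at 12.1 to 14.6 CPM.

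Ccnd1 (ENSRNOG00000020918) encodes cyclin D1, the D-type cyclin best known as a target of mitogen signalling. Its level was 90.6, 80.5 and 88.7 CPM in the Control libraries, 93.5, 94.9 and 94.6 CPM in the Thrombin libraries, and 38.9, 42.5 and 44.9 CPM in the PD03 libraries. The PD03 libraries lay well below all 6 others, and the groups did not overlap. Raw counts were 1275 to 1666 with medium alone, 1572 to 1731 with thrombin and 656 to 734 with PD03. With PD03 against thrombin Ccnd1 fell by 55.5% (log2 fold change -1.17, SE 0.06, adjusted p = 7.2e-21, edgeR), which ranked 250 by size among the 6446 genes with a negative value. Against control the log2 fold change was -1.04 (SE 0.06, adjusted p = 7.0e-19, edgeR), so the level with both agents was below that of untreated cells as well. Both falls passed in all 20 refits with another scaling, filter, test, unit or set of libraries.

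The Thrombin libraries lay slightly above the Control libraries for Ccnd1, without overlap. The log2 fold change was 0.12 (95% confidence interval 0.01 to 0.23, adjusted p = 0.083, edgeR), which did not pass the test. It passed in 3 of 20 refits, namely the fit of these groups alone (adjusted p = 0.045, edgeR) and the fits without Control replicate 1 (adjusted p = 0.047) or PD03 replicate 1 (adjusted p = 0.044).

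Ccnd3 (ENSRNOG00000050258), encoding cyclin D3, was the most abundant D-type cyclin. It measured 169 to 179 CPM with medium alone, 176 to 183 CPM with thrombin and 186 to 205 CPM with PD03. It rose with PD03 against control by a log2 fold change of 0.17 (SE 0.04, adjusted p = 0.0012, edgeR) and against thrombin by 0.11 (SE 0.04, adjusted p = 0.029, edgeR). The rise against thrombin passed in only 7 of 20 refits. It was lost without Control replicate 2 or 3, without any 1 of the Thrombin replicates and without PD03 replicate 1 (0.06, adjusted p = 0.22, edgeR). With library totals both rises were lost, at 0.05 (adjusted p = 0.32, edgeR) and 0.01 (adjusted p = 0.86, edgeR).

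Ccnd2 (ENSRNOG00000062959), encoding cyclin D2, measured 38.8 to 41.9 CPM with medium alone, 36.4 to 39.1 CPM with thrombin and 40.5 to 46.9 CPM with PD03. It rose with PD03 against thrombin by 0.18 on the log2 scale (SE 0.07, adjusted p = 0.019, edgeR). The rise no longer passed with library totals (0.09, adjusted p = 0.30, edgeR), without PD03 replicate 2 (0.11, adjusted p = 0.24), without Thrombin replicate 2 (0.17, adjusted p = 0.070) and without Thrombin replicate 3 (0.16, adjusted p = 0.082). Neither Ccnd2 nor Ccnd3 thus shared the fall of Ccnd1 with PD03.

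Per length, the 3 cyclins can be set side by side. In FPKM, the deposited unit that divides by gene length and library size, Ccnd3 averaged 86.0 ± 2.44 with medium alone, Ccnd1 40.4 ± 2.76 and Ccnd2 6.73 ± 0.32 (SD, n = 3). Ccnd1 made up 30.3% ± 1.18 of the summed cyclin FPKM with medium alone, 31.5% ± 0.56 with thrombin and 15.96% ± 1.61 with PD03 (SD, n = 3). The share of Ccnd3 was 64.6% ± 1.30, 64.0% ± 0.44 and 78.2% ± 1.88 in the same order, and that of Ccnd2 was 4.49% to 5.80%. These shares are taken within a library and so do not depend on its scaling. The summed level of the 3 cyclins was 133 ± 4.75 FPKM with medium alone, 138 ± 1.90 with thrombin and 114 ± 3.51 with PD03, and 129, 136 and 120 after division by the TMM factors.

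**Figure D2:**
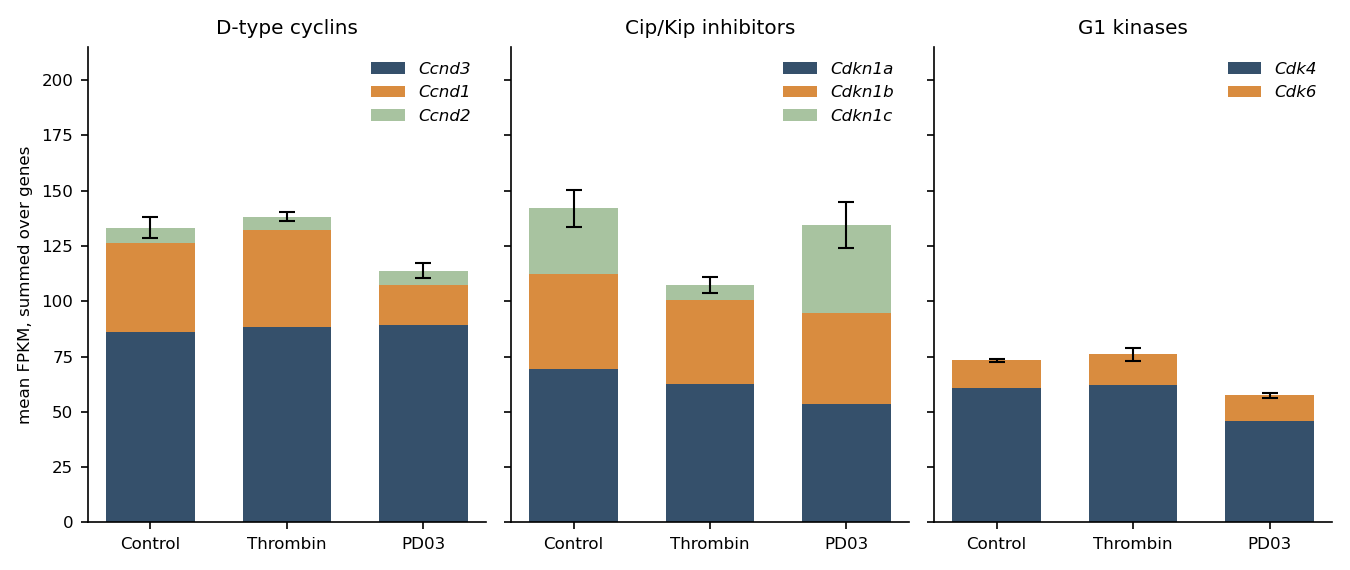
Mean deposited FPKM, summed over the D-type cyclins, the Cip/Kip inhibitors and the G1 kinases, in each group. Colours mark the genes and the whiskers are ± 1 SD of the sum (n = 3). The cyclin sum was lowest with PD03, at 114 FPKM, through its Ccnd1 segment, and the Cip/Kip sum was lowest with thrombin, at 107 FPKM, mostly through its Cdkn1c segment. Both held after division by the TMM factors.

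Cdk4 (ENSRNOG00000025602), a kinase partner of the D-type cyclins, measured 255, 261 and 265 CPM with medium alone, 272, 275 and 258 CPM with thrombin, and 222, 204 and 208 CPM with PD03. The PD03 libraries lay below all others, and those of the other 2 groups overlapped. Cdk4 fell with PD03 by 0.34 on the log2 scale against thrombin (SE 0.04, adjusted p = 1.0e-09, edgeR) and by 0.30 against control (SE 0.04, adjusted p = 5.3e-08, edgeR). Both falls passed in all 20 refits but stayed under the fold threshold. Between thrombin and control the difference was 0.05 (95% confidence interval -0.03 to 0.13, adjusted p = 0.42, edgeR).

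Cdk6 (ENSRNOG00000009258), the other kinase partner, measured 26.1 to 28.3 CPM with medium alone, 29.1 to 32.1 CPM with thrombin and 25.0 to 29.9 CPM with PD03. It passed no test. The log2 fold change was 0.18 for thrombin against control (adjusted p = 0.078, edgeR) and -0.16 for PD03 against thrombin (adjusted p = 0.081, edgeR), and the latter passed with library totals (-0.26, adjusted p = 0.0045) and without PD03 replicate 3 (-0.22, adjusted p = 0.031). Of the summed FPKM of both kinases, Cdk4 held 82.8% ± 0.77 with medium alone, 81.5% ± 0.25 with thrombin and 79.4% ± 2.08 with PD03 (SD, n = 3).

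Cdkn1c (ENSRNOG00000059500) encodes p57, a Cip/Kip inhibitor whose gene is imprinted and which is known for holding differentiating cells out of the cycle during development. It showed the largest changes of the 10 genes. Its level was 59.3, 57.5 and 58.2 CPM in the Control libraries, 12.1, 14.6 and 13.1 CPM in the Thrombin libraries, and 96.8, 79.1 and 80.7 CPM in the PD03 libraries. The 3 groups did not overlap, and the Thrombin libraries stood far below the rest. Raw counts were 910 to 1090, 204 to 267 and 1221 to 1828 in the same order, so none of these values rested on a low count.

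With thrombin Cdkn1c fell against control (log2 fold change -2.13, SE 0.08, adjusted p = 1.1e-24, edgeR), which ranked 61 by size among 6775 genes with a negative value. With PD03 it rose against thrombin by 2.69 (SE 0.08, adjusted p = 2.9e-29, edgeR), ranking 74 among 6810 genes with a positive value. Both passed in all 20 refits, with log2 fold changes from -2.20 to -1.999 and from 2.42 to 2.75. Against control, Cdkn1c rose with PD03 by 0.56 (SE 0.06, adjusted p = 1.4e-09, edgeR). This lay just under the fold threshold of 0.58, and without PD03 replicate 2 or 3 the value was 0.60, which was called. PD03 replicate 1, the library with the highest Cdkn1c, also had the lowest Ccnd1 and Cdk6 of its group. The same library had the highest Ccnd3 (205 CPM), Cdk4 (222 CPM), Cdkn1a (143 CPM), Cdkn1b (81.3 CPM) and Cdkn2b (17.3 CPM) of its group.

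Cdkn1a (ENSRNOG00000000521) encodes p21, a Cip/Kip inhibitor best known as a target of p53. It measured 167, 150 and 159 CPM with medium alone, 153, 139 and 144 CPM with thrombin, and 143, 127 and 129 CPM with PD03. The groups overlapped in neighbouring pairs, while all PD03 libraries lay below all Control libraries. Its fall with PD03 against control (log2 fold change -0.25, SE 0.05, adjusted p = 3.0e-05, edgeR) passed in all 20 refits. The falls with thrombin against control (-0.13, adjusted p = 0.040, edgeR) and with PD03 against thrombin (-0.13, adjusted p = 0.026, edgeR) were less firm. The first passed in 12 of 20 refits and was lost without Control replicate 1 (-0.09, adjusted p = 0.24) or 3 (-0.12, adjusted p = 0.11) and without Thrombin replicate 2 (-0.09, adjusted p = 0.24) or 3 (-0.12, adjusted p = 0.13), and by DESeq2 (adjusted p = 0.10). The second passed in 17 of 20 and was lost without Thrombin replicate 1 (-0.10, adjusted p = 0.12) or PD03 replicate 2 (-0.11, adjusted p = 0.097) or 3 (-0.10, adjusted p = 0.12).

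Cdkn1b (ENSRNOG00000007249) encodes p27, the Cip/Kip inhibitor tied to cell cycle exit. It measured 79.4, 70.1 and 71.7 CPM with medium alone, 66.9, 64.4 and 65.5 CPM with thrombin, and 81.3, 74.0 and 72.5 CPM with PD03. The Thrombin libraries were the lowest, and those of the other groups overlapped. Cdkn1b fell with thrombin (log2 fold change -0.17, SE 0.06, adjusted p = 0.018, edgeR) and rose with PD03 against thrombin by 0.21 (SE 0.06, adjusted p = 0.0014, edgeR). These have the directions of Cdkn1c at a much smaller size. The fall was lost without Control replicate 1 (-0.11, adjusted p = 0.19), Thrombin replicate 2 (-0.15, adjusted p = 0.081) or Thrombin replicate 3 (-0.17, adjusted p = 0.057), and the rise with library totals (0.11, adjusted p = 0.088). Between PD03 and control the difference was 0.04 (95% confidence interval -0.07 to 0.16, adjusted p = 0.57, edgeR), and its sign turned with library totals (-0.07).

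Within the Cip/Kip family, Cdkn1c held 20.8% ± 0.68 of the summed FPKM with medium alone, 6.19% ± 0.77 with thrombin and 29.6% ± 1.05 with PD03 (SD, n = 3). Cdkn1a held 48.8% ± 0.50, 58.3% ± 1.17 and 39.8% ± 0.54, and Cdkn1b 30.5% ± 0.67, 35.5% ± 0.44 and 30.6% ± 0.63 in the same order. The summed Cip/Kip level was 142 ± 8.21 FPKM with medium alone, 107 ± 3.47 with thrombin and 135 ± 10.6 with PD03. After division by the TMM factors it was 138 ± 6.73, 105 ± 3.28 and 141 ± 11.1 in the same order, so the Control and PD03 sums, whose ranges overlapped either way, changed places with the scaling. The ratio of Ccnd1 to Cdkn1c FPKM within a library was 1.37 ± 0.07 with medium alone, 6.60 ± 0.57 with thrombin and 0.46 ± 0.08 with PD03 (SD, n = 3). With thrombin the ratio moved through Cdkn1c, and with PD03 both genes contributed.

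Cdkn2b (ENSRNOG00000006735) encodes p15, an INK4 inhibitor known as a target of transforming growth factor β. It measured 20.3, 22.0 and 21.1 CPM with medium alone, 14.2, 17.5 and 16.5 CPM with thrombin, and 17.3, 14.6 and 14.8 CPM with PD03. Both thrombin-treated groups lay below the Control libraries and overlapped each other. Cdkn2b fell with thrombin against control (log2 fold change -0.39, SE 0.09, adjusted p = 0.0012, edgeR) and with PD03 against control (log2 fold change -0.44, SE 0.10, adjusted p = 2.3e-04, edgeR), and both passed in all 20 refits. Between PD03 and thrombin the difference was -0.05 (95% confidence interval -0.24 to 0.15, adjusted p = 0.73, edgeR), and without Thrombin replicate 2 its sign turned (0.01). Unlike Cdkn1c, it was thus no higher with PD03 than with thrombin alone by this test, although the interval allows a small change either way.

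Cdkn2c (ENSRNOG00000008956) encodes p18, another INK4 inhibitor. It measured 34.8 to 36.6 CPM with medium alone, 37.1 to 42.2 CPM with thrombin and 32.6 to 36.6 CPM with PD03. It was the only inhibitor among the 10 genes that rose with thrombin, by 0.19 on the log2 scale (SE 0.07, adjusted p = 0.035, edgeR), and it fell with PD03 against thrombin (log2 fold change -0.22, SE 0.07, adjusted p = 0.0059, edgeR). The fall passed in all 20 refits. The rise passed in 13 of 20 and was lost with library totals (adjusted p = 0.060), without Control replicate 1 (adjusted p = 0.11) or 2 (adjusted p = 0.085), and without Thrombin replicate 1 (adjusted p = 0.13) or 2 (adjusted p = 0.14).

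**Figure D3:**
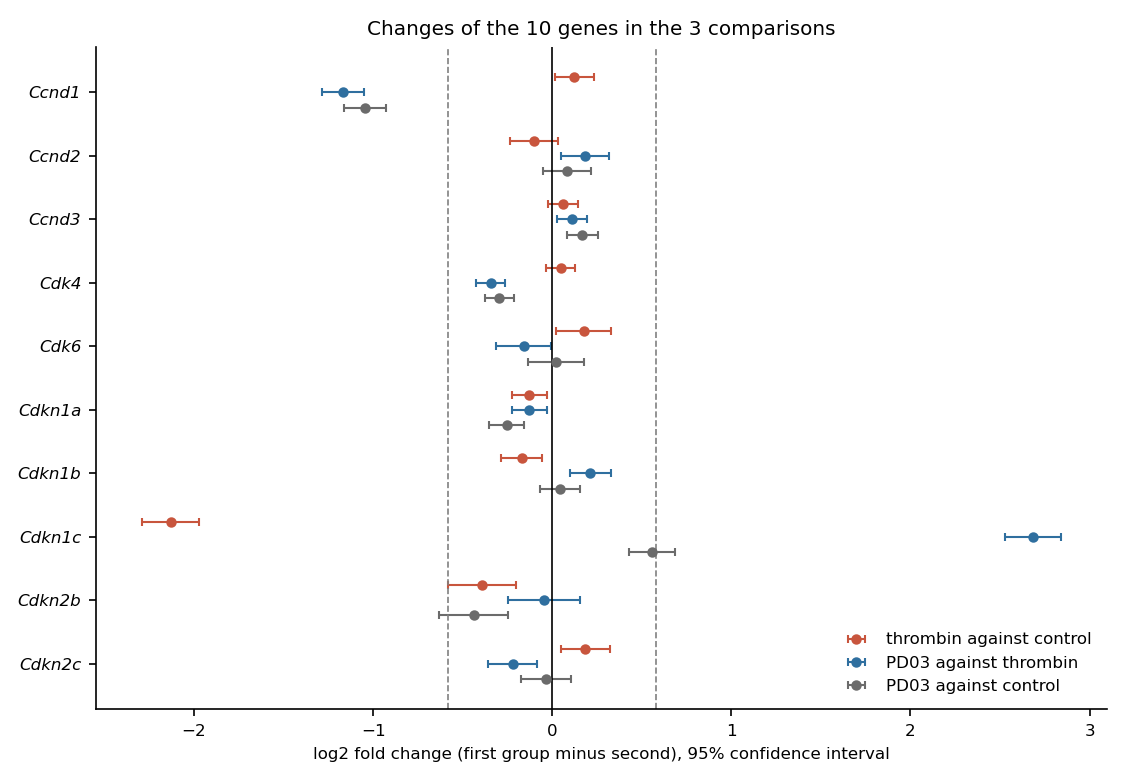
Log2 fold change of each gene (horizontal axis, first group minus second) with its 95% confidence interval from the edgeR fit, for the 3 comparisons. Dashed lines mark the fold threshold of 0.58 in either direction. The points of Ccnd1 lie beyond it in both comparisons with PD03. Those of Cdkn1c lie at -2.13 and 2.69 in the comparisons with the Thrombin group, and the points of the other genes within it. The intervals of Cdkn2b reach past it in both comparisons with the Control group, to -0.584 and -0.631. That of Cdkn1c for PD03 against control runs from 0.43 to 0.68.

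By FPKM, the 10 genes kept much of their order across the groups. Ccnd3 was highest in each, followed by Cdkn1a and Cdk4, and Ccnd2 and Cdkn2b were among the lowest. With medium alone the order was Ccnd3 (86.0 FPKM), Cdkn1a (69.2), Cdk4 (60.8), Cdkn1b (43.3), Ccnd1 (40.4), Cdkn1c (29.4), Cdkn2c (25.6), Cdk6 (12.6), Cdkn2b (8.75) and Ccnd2 (6.73), and among neighbours only the ranges of Cdkn1b and Ccnd1 overlapped. With thrombin the ranges of Cdkn1a (62.7 FPKM) and Cdk4 (62.1 FPKM) overlapped, and Cdkn1c moved from rank 6 to rank 8 at 6.63 FPKM, where its range overlapped that of Cdkn2b (6.58 FPKM), and the range of Cdkn2b overlapped that of Ccnd2 (6.21 FPKM). With PD03 Cdkn1c stood at rank 5 with 39.8 FPKM, overlapping Cdkn1b (41.2 FPKM), while Ccnd1 stood at rank 7 with 18.1 FPKM, below Cdkn2c (23.0 FPKM) without overlap. Ccnd2 (6.60 FPKM) and Cdkn2b (5.94 FPKM) were then the lowest, and their ranges overlapped.

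The genes whose pattern was most like the called ones were taken by Pearson's correlation of log2 CPM over the 9 libraries, among 8859 genes averaging at least 10 CPM. For Ccnd1 these were Csf3 (r = 0.997), which encodes granulocyte colony-stimulating factor, Pabpc1 (r = 0.996), which encodes a poly(A)-binding protein, and Ncapd2 (r = 0.995), which encodes a condensin subunit. Csf3 averaged 20.7, 28.5 and 3.50 CPM in the Control, Thrombin and PD03 groups. For Cdkn1c they were Rarres2 (r = 0.998), encoding the adipokine chemerin, Sema3d (r = 0.994), a secreted semaphorin, and Col14a1 (r = 0.994), a fibril-associated collagen. Rarres2 averaged 32.2, 6.27 and 48.6 CPM in the same order. The 9 points fall in 3 groups, so these values mostly reflect the differences between group means.

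Counts in the lists that follow stand beside these shares of all genes. With thrombin against control 14.1% rose and 14.6% fell, with PD03 against thrombin 25.3% and 24.5%, and with PD03 against control 19.7% and 20.2%. Called higher and lower were 2.62% and 5.44%, 9.61% and 6.31%, and 4.90% and 4.07% in the same order. Genes known to answer to MEK and ERK were read as outputs of that pathway, beside Ccnd1. Of 16 such genes, 4 rose and 5 fell with thrombin, at a median log2 value of 0.07, and 2 were called, both higher (5 were called without Thrombin replicate 1). With PD03 against thrombin 15 fell, 12 of them called, and 1 rose, with a median of -0.95 beside 0.01 over all genes. Against control 13 fell, 11 of them called, and the median was -1.02. The zinc finger factor Egr1 averaged 339 ± 45.4, 243 ± 68.7 and 18.7 ± 1.33 CPM in the Control, Thrombin and PD03 groups (SD, n = 3), and its log2 fold change with PD03 against thrombin was -3.70 (SE 0.12, adjusted p = 1.7e-27, edgeR). Dusp6, the phosphatase that acts on ERK, averaged 30.4 ± 1.35, 23.1 ± 3.07 and 4.32 ± 1.05 CPM (log2 fold change -2.40, SE 0.12, adjusted p = 4.1e-20). Phlda1 fell by 2.70 and the ETS factor Etv4 by 2.62 in this comparison. Thrombin against control gave both directions, since Phlda1 rose by 0.98 (adjusted p = 9.5e-16, edgeR) while Egr1 (-0.48, adjusted p = 3.1e-05) and Dusp6 (-0.40, adjusted p = 8.5e-04) fell. Ccnd1 fell with PD03 as most of this list did.

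Of 17 tested transcription factors known to act on the 10 genes, 3 rose and 8 fell with PD03 against thrombin, and 2 and 5 of these were called, 3 in all with glmTreat, edgeR's test of whether a change exceeds the fold threshold. The list shares Egr1, Fosl1 and Myc with the MEK-ERK genes. Fosl1, a subunit of the factor AP-1, averaged 21.0 ± 1.58, 28.0 ± 4.08 and 7.79 ± 0.52 CPM (PD03 against thrombin -1.85, SE 0.11, adjusted p = 1.2e-18, edgeR), and Fos fell by 0.61 (adjusted p = 0.0040, edgeR). Klf4, a factor known to act on Cdkn1a, fell by 0.79 with thrombin and rose by 0.98 with PD03 against thrombin, at 197 ± 4.70, 114 ± 7.94 and 223 ± 6.60 CPM. Its pattern across the groups had the order of Cdkn1c, not of Cdkn1a. Thrombin against control gave 4 rises and 5 falls in this list, with Klf4 the only one called (3 genes were without Thrombin replicate 1 and 2 without Control replicate 2).

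**Figure D4:**
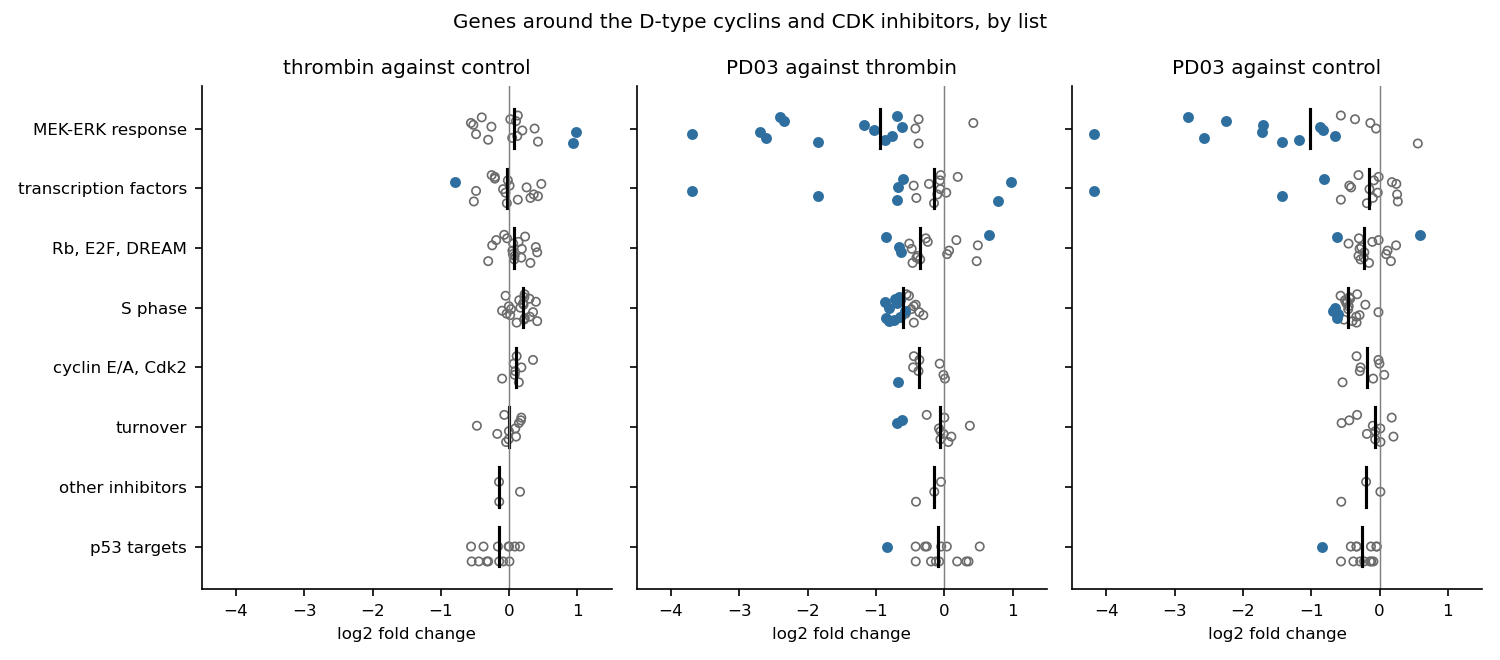
Log2 fold change (horizontal axes) of each tested gene of 8 lists in the 3 comparisons. Filled points passed both the adjusted p-value and the fold threshold, open points did not, and black bars are list medians. For PD03 against thrombin the medians were -0.95 for MEK-ERK response genes and -0.61 for S-phase genes, against 0.07 and 0.21 for thrombin against control.

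Downstream of the D-type cyclins, 20 genes of DNA replication and S phase that are known E2F targets were examined. With thrombin against control 13 of 20 rose, none fell and none was called, with a median of 0.21. With PD03 against thrombin all 20 fell, 11 of them called, with a median of -0.61, and against control 19 fell, 4 of them called, with a median of -0.45. With library totals 15 and 9 were called in these comparisons, and with glmTreat 6 and 0. Mcm6, a subunit of the replicative helicase, averaged 132 ± 1.46, 155 ± 4.54 and 85.5 ± 2.92 CPM in the Control, Thrombin and PD03 groups (PD03 against thrombin -0.86, SE 0.04, adjusted p = 4.6e-20, edgeR). Mcm7 (-0.81), the origin licensing factor Cdt1 (-0.81) and the helicase loader Cdc6 (-0.86) fell likewise. Thrombin raised Cdt1 by 0.41 (adjusted p = 1.7e-05, edgeR) and Cdc6 by 0.39 (adjusted p = 3.6e-04), whereas Ccnd1 did not pass in that comparison and Cdkn1c fell.

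Among the 17 genes of the Rb family, the E2F factors and the DREAM complex, 4 rose and 10 fell with PD03 against thrombin, with a median of -0.35. Rb1 itself was called higher, at 14.5 ± 1.56, 13.9 ± 1.74 and 21.8 ± 1.73 CPM (0.66, SE 0.10, adjusted p = 4.6e-07, edgeR). Its relative Rbl1 (-0.63, adjusted p = 5.9e-09), the repressor E2f8 (-0.85, adjusted p = 3.8e-10) and the DREAM subunit Lin9 (-0.66, adjusted p = 7.9e-06) were called lower. With thrombin against control 5 rose and 1 fell, and none was called. Against control 2 rose and 8 fell with PD03, of which Rb1 was called higher and E2f8 lower. Both lay near the fold threshold, and neither was called without Control replicate 3 or with glmTreat. With PD03 against thrombin glmTreat called 1 of the 17 in place of 4.

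The cyclins and kinase that act after the D-type cyclins were read in the same way. Of 8 genes for cyclin E, cyclin A, Cdk2 and its activators, 3 rose with thrombin, 5 fell with PD03 against thrombin and 4 fell with PD03 against control. Ccne1 and Ccne2 are in this list and among the S-phase genes above, so the counts of both lists share them. Ccna2, encoding cyclin A2, was the only one called, at 83.9 ± 3.67, 92.6 ± 1.64 and 57.7 ± 5.23 CPM (PD03 against thrombin -0.68, SE 0.06, adjusted p = 1.0e-13, edgeR). Of the 11 tested genes for the turnover of D-type cyclins and Cip/Kip proteins, 3 fell and 1 rose with PD03 against thrombin. Over all genes 24.5% fell and 25.3% rose in that comparison. Those called were Skp2 (-0.62, adjusted p = 1.5e-06) and its cofactor Cks1b (-0.70, adjusted p = 3.1e-12), which together direct p27 and p57 to degradation, and 1 of the 2 was lost without Thrombin replicate 3 or PD03 replicate 2. With glmTreat Ccna2, Skp2 and Cks1b were all no longer called. With thrombin against control 1 of the 11 rose and 2 fell, and with PD03 against control 1 rose and 4 fell. None of these was called. In the last comparison 1 of the 11 was called with library totals, or without Control replicate 3, PD03 replicate 1 or PD03 replicate 3. Library totals also gave 1 call among the 8 cyclin E, cyclin A and Cdk2 genes with PD03 against control.

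The other inhibitors of the cycle were 3 genes, and none was called. Cdkn2a, which encodes the INK4 protein p16 and the p53 activator Arf, fell with PD03 against thrombin (log2 fold change -0.41, adjusted p = 1.5e-04, edgeR) and against control (log2 fold change -0.56, adjusted p = 1.7e-06). The latter was near the fold threshold, and 1 of the 3 genes was called with library totals, or without Control replicate 1 or 2 or PD03 replicate 1. None of the 3 passed for thrombin against control, and against control Cdkn3 fell as well with PD03. In each pathway list with no call in a comparison, no gene lay beyond the fold threshold whatever its p-value by edgeR, and DESeq2 and limma voom called none either. As Cdkn1a is a p53 target, 14 other p53 targets were set beside it. With thrombin 1 rose and 7 fell, and with PD03 against thrombin 2 rose and 6 fell. Against control 7 fell with PD03 and none rose. Their medians were -0.16, -0.10 and -0.25 in this order, beside -0.13, -0.13 and -0.25 for Cdkn1a. Btg2, an inhibitor of proliferation, was the only one called, at -0.83 for PD03 against thrombin (adjusted p = 9.8e-13, edgeR) and -0.84 against control (adjusted p = 1.5e-12). With thrombin against control up to 2 were called (without Control replicate 1). With PD03 against control up to 2 were called with library totals, or without Control replicate 3 or PD03 replicate 1.

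Markers of other cell types differed in level, and the cartilage collagen gene Col2a1 was the highest, at 84.4, 49.2 and 56.4 CPM in the Control, Thrombin and PD03 groups, above Cdkn1c with medium alone. The summed myeloid markers measured 20.8 to 23.8 CPM with medium alone, 29.2 to 32.8 CPM with thrombin and 17.6 to 19.3 CPM with PD03, almost all of it Cd14, while Ptprc averaged under 1 CPM. Of the 8 markers, 2 were abundant enough to be tested, and these went opposite ways with PD03. Cd14 was called lower with PD03 against thrombin (log2 fold change -0.91, adjusted p = 4.6e-12, edgeR). Csf1r (0.44, 0.75 and 1.24 CPM) had 26 counts or fewer in every library. It was called higher with PD03 against control (1.47, adjusted p = 0.0045, edgeR). The summed endothelial markers were 6.69 to 7.77, 6.31 to 8.51 and 11.1 to 12.6 CPM, mostly Tek (6.46, 6.17 and 9.51 CPM). Only 3 of the 5 listed were in the data. Kdr (0.56, 0.69 and 1.88 CPM) was called higher with PD03 against thrombin (log2 fold change 1.42, adjusted p = 0.0014, edgeR). It was also called higher with PD03 against control (1.72, adjusted p = 3.8e-04, edgeR). Tek was called higher with PD03 against thrombin (0.62, adjusted p = 1.9e-04, edgeR). The summed chondrocyte markers were 83.3 to 92.9, 50.9 to 57.0 and 65.3 to 71.5 CPM, mostly Col2a1. Col2a1 was called lower with thrombin against control (log2 fold change -0.78, adjusted p = 1.3e-14, edgeR). It was also called lower with PD03 against control (-0.582, adjusted p = 3.2e-11, edgeR), close to the fold threshold. Acan (0.59, 1.43 and 1.19 CPM), at 33 counts or fewer in every library, was called higher with thrombin against control (log2 fold change 1.29, adjusted p = 0.0089, edgeR). Comp (3.45, 2.44 and 11.0 CPM) was called higher with PD03 against thrombin (2.16, adjusted p = 1.7e-14, edgeR). Adipocyte and skeletal muscle markers summed to at most 1.62 CPM in any library. The muscle marker Acta1 (0.28, 0.52 and 1.19 CPM) had 25 counts or fewer in every library. It was called higher with PD03 against thrombin (log2 fold change 1.17, adjusted p = 0.019, edgeR) and against control (2.04, adjusted p = 5.5e-04, edgeR). The osteoblast marker sum, nearly all Col1a1 and Col1a2, had the order of Cdkn1c over the groups, lowest with thrombin and highest with PD03, as did Alpl (1.67, 0.35 and 3.11 CPM), which encodes alkaline phosphatase. Spp1, which encodes osteopontin, went the other way at 63.7, 185 and 53.1 CPM, as did the osteoblast factor Runx2, which rose with thrombin (log2 fold change 0.26, adjusted p = 0.0022, edgeR) and was called lower with PD03 against thrombin (log2 fold change -0.67, adjusted p = 2.5e-11, edgeR). Sp7 (4.25, 6.20 and 4.95 CPM) rose with thrombin as well (log2 fold change 0.53, adjusted p = 0.018, edgeR), without being called. Alpl held at most 6 counts in any Thrombin library. The chondrocyte sum was lowest with thrombin. Whether the makeup of the cultures had a part in the level of Cdkn1c was not tested.

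Promoter sequences from RefSeq (assembly GRCr8) were at hand for 6 of the 10 genes, namely Ccnd3, Cdk4, Cdkn1a, Cdkn1b, Cdkn2b and Cdkn2c, and each covers 250 bases before the start of transcription and 50 bases after it. Those of Cdk4, which fell with PD03, and Ccnd3, which did not, are shown to set a kinase beside its cyclin partner. Capitals mark matches on either strand to an E-box (CACGTG), an AP-1 site (TGANTCA), a GC box (GGGCGG), the core of a cyclic AMP response element (TGACGT) or an E2F site (TTNGCGC).
Cdk4, chr7:64771203-64771502, plus strand: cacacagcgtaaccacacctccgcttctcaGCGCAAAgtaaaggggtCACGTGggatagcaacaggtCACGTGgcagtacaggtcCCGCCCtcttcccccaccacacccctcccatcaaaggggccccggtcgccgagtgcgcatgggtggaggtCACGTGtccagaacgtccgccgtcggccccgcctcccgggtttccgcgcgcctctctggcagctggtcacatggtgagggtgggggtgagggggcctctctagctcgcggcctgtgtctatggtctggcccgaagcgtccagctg
Ccnd3, chr9:20897826-20898125, minus strand: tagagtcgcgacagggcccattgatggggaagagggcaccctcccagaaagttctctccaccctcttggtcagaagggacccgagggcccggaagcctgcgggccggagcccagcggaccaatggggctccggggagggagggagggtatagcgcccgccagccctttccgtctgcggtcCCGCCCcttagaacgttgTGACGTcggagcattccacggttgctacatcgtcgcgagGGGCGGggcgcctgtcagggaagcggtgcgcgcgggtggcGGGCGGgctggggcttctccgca
The Cdk4 promoter held 3 E-boxes, beginning 203, 183 and 95 bases before the start, with 1 GC box and 1 E2F match. The Ccnd3 promoter held 3 GC boxes and 1 response element core, and no E-box. Of all 33469 promoters of this length, 6.42% held an E-box, 33.06% a GC box, 7.33% an AP-1 match, 7.94% the response element core and 6.00% an E2F match. None of the 6 promoters held an AP-1 match, and the E-boxes and the E2F match were found in that of Cdk4 alone among the 6. Myc, an E-box factor named here after its values were seen, averaged 66.3 ± 1.82, 72.5 ± 3.61 and 44.9 ± 3.30 CPM and fell with PD03 against thrombin (log2 fold change -0.69, SE 0.06, adjusted p = 2.7e-13, edgeR). A match describes letters within this window and not the binding of a factor.

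In the same RefSeq annotation, Cdk4 overlaps Tspan31 by 11 bases, Ccnd3 overlaps the long noncoding RNAs LOC134480552 and LOC134480554, and Cdk6 overlaps LOC134486561. Whether the libraries or the counting kept strand was not given, so reads within these overlaps cannot be assigned to either gene with certainty. No overlapping gene was listed for Ccnd1 or Cdkn1c.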

How the data were processed

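Polyadenylated RNA of 9 libraries, 3 per group, was sequenced on an Illumina instrument. The authors trimmed reads with fastp, aligned them with HISAT2 and counted them per gene. The paper names Rnor_6.0 and featureCounts, and the submitters' processing notes name mRatBN7.2 and HTSeq 0.13.5. Strandedness was not given in the sources used here, nor was the annotation release. The deposited counts are raw whole numbers per gene and library, and the deposited FPKM values are the authors' counts divided by gene length and library total.

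Genes were tested on the counts with edgeR 4.0.16 (R 4.3.3): filterByExpr with a minimum count of 10, TMM scaling, the quasi-likelihood test on all 9 libraries with group as the only term, and Benjamini-Hochberg adjustment over 13256 genes. DESeq2 1.42.0 and limma 3.58.1 served as alternatives, with other scalings, filters, fold thresholds, the FPKM values (log2 with 1 or 0.1 added), a replicate block and each library left out. The alternatives for the test of any difference among groups and for the family sums were chosen after the data were seen. FPKM was used for levels between genes and for family sums and shares, and the sums were also divided by the TMM factors. The script was tested on simulated counts with known changes. Intervals cover the spread between libraries at these depths.

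The 10 genes and all lists were chosen with earlier results of these data known. All 10 genes are named. From each list, called genes averaging at least 1 CPM in their highest group are named, at most 4 by size of change, and per called member the 3 genes most correlated with it. Promoters came from RefSeq (GRCr8) with 6 of 10 genes matched, and motif and overlap searches used the same tables. Of the genes listed, 2048 carry no symbol.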

Additional observations from a re-analysis of the deposited data

How the results depend on the processing

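Of the log2 fold changes of the 10 genes under all alternatives, 660 kept their sign and were called, by adjusted p-value and fold threshold together, in both cases or in neither, 17 were called only under the alternative and 13 changed sign. The changed fold thresholds and glmTreat keep the fold changes of the main fit, so no sign could change there. Most of the 17 came from dropping the fold threshold. The adjusted p-value alone was less stable: in 600 refits it crossed 0.05 in 55, of which 46 lost a change and 9 gained one, and 11 of the 19 changes that passed did so in all their refits. The sign changes were all of values that had not passed. With library totals, FPKM plus 1 and FPKM plus 0.1, PD03 against control gave -0.033, -0.027 and -0.031 for Ccnd2, -0.098, -0.088 and -0.095 for Cdk6, and -0.073, -0.071 and -0.072 for Cdkn1b. Leaving out single libraries gave -0.041 to 0.090 for Cdk6 and -0.011 to 0.10 for Cdkn1b in this comparison, and -0.14 to 0.012 for Cdkn2b with PD03 against thrombin.

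Over all genes, 1068 were called for thrombin against control, 2110 for PD03 against thrombin and 1189 for PD03 against control. In this order the counts became 460, 1051 and 499 with glmTreat, 505, 935 and 519 with a log2 fold threshold of 1, 3808, 6608 and 5289 with none, and 543, 1254 and 676 from FPKM plus 1. Without a fold threshold 5, 8 and 6 of the 10 genes were called in place of 1, 2 and 1. With PD03 against control the count was 1 to 2 over single libraries left out. For thrombin against control the genes past the adjusted p-value numbered 5 in the main test, 3 from FPKM plus 1, 3 from FPKM plus 0.1 and 2 to 6 over single libraries left out. In the test of any difference, 7 to 10 passed over single libraries left out. Calls for PD03 were 60.4% higher against thrombin with TMM and 46.5% with library totals, and 54.6% and 34.1% against control.

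With the replicate number as a replicate block, 1067, 2103 and 1187 genes were called, and no count of the 10 genes changed. Deviations from group means correlated at -0.05 to 0.05 between libraries of the same number and at -0.05 to 0.06 otherwise. They thus showed no pairing by number over all tested genes, which does not exclude a shared effect on some of them. The depth limits small changes of the less abundant genes, as the SE of Cdkn2b (0.09 to 0.10) was over that of Cdk4 (0.04).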
